A study of Homo sapiens with 18 samples.

Results

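The effect of AML874 on the transcriptome of OCI-AML1 cells was compared between a late and an early time, 24 h and 8 h after the compound was given. OCI-AML1 is a cell line from human acute myeloid leukaemia. The 4 groups were cells given AML874 for 24 h, cells given DMSO for 24 h, cells given AML874 for 8 h and cells given DMSO for 8 h, with 3 libraries in each. These are 12 of the 18 libraries of the series. The other 6 came from cells given SEL120-34A for 24 h or 8 h. All groups share the cell line, and DMSO is the solvent control. The labels give no dose for either compound, and nothing in them says that the libraries of a group came from separate cultures, so each p-value rests on the variation from library to library, which may be technical. In bulk RNA, a change in the share of cells of one kind and a change in RNA per cell cannot be told apart.

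The title of the series is about inhibition of the Mediator kinases. Mediator is a large complex that carries signals from transcription factors to RNA polymerase II, and a detachable module holds its kinase, CDK8 or CDK19, with cyclin C (CCNC), MED12 and MED13. These kinases phosphorylate transcription factors and the transcription machinery, and SEL120-34A is an inhibitor of both. AML874 is a code name. A treatment of hours reaches first the transcripts whose synthesis depends directly on the target and that decay fast, and later those downstream of changed transcription factors, so the same gene can respond early, late or at both times.

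An effect is the log2 fold change of AML874 over DMSO at 1 time, given with its standard error (SE). The late minus early difference is the effect at 24 h minus the effect at 8 h, tested for each gene as an interaction of compound and time in 1 model of read counts (edgeR quasi-likelihood test, Benjamini-Hochberg adjusted p under 0.05 over all genes tested, called here a call). Levels are counts scaled by library size (CPM). Of 60609 gene identifiers, 20920 had enough counts to be tested, 13339 of them protein coding. The 12 libraries held 98975944 to 139957031 counts in genes, so that a gene with 0 counts lay under 0.0214 to 0.0303 CPM, a limit of 3 counts that covers counting error only. The transcripts matched the labelled cell type in part. PTPRC, CD33, SPI1, CSF3R and CEBPA, markers of myeloid blasts, had levels of 52.4 to 357 CPM. The myeloid marker MPO had 4.24 to 37.7 CPM, and another, ANPEP, was at or under 0.0442 CPM. Globin genes and the T cell genes CD2 and CD5 had 0 counts, although TRAC, a T cell receptor chain gene, had 2.10 to 7.97 CPM. Among the other markers looked up for other cell types, PECAM1 had 48.5 to 74.3 CPM and EPOR 5.87 to 7.83 CPM. ITGA2B had 1.13 to 2.36 CPM and CD79A 0.273 to 1.56 CPM, and the rest were at or under 0.508 CPM.

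The late minus early difference was called for 4944 genes (23.6% of those tested), and it was higher at 24 h for 2330 (11.1%) and lower for 2614 (12.5%). Most of these differences were small, with a median absolute size of 0.27 on the log2 scale. A difference of at least 2-fold was called for 201 genes upward and 184 downward, of which 52 and 26 were among the 13002 genes with a mean of at least 1 CPM. Scaling by library totals alone moved the median difference over all genes to -0.055, against -0.0077 with the scaling used. It turned the split into 1724 higher and 3884 lower. Small differences thus depend on the scaling, and so did some calls on differences larger than that shift. The Mediator gene MED21, at 0.1047 with library totals, lost its call (edgeR adjusted p = 0.0897). AML874 had a called effect on 9799 genes at 24 h (46.8%), 4833 higher (23.1%) and 4966 lower (23.7%), and on 8287 genes at 8 h (39.6%), 4125 higher (19.7%) and 4162 lower (19.9%). Across all genes tested the effects at 24 h and 8 h had a Pearson r of 0.516 and a Spearman rho of 0.494, which describe genes and not independent replicates. Among the 5688 genes with called effects at both times, 5157 (90.7%) had the same sign at both.

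**Figure D1:**
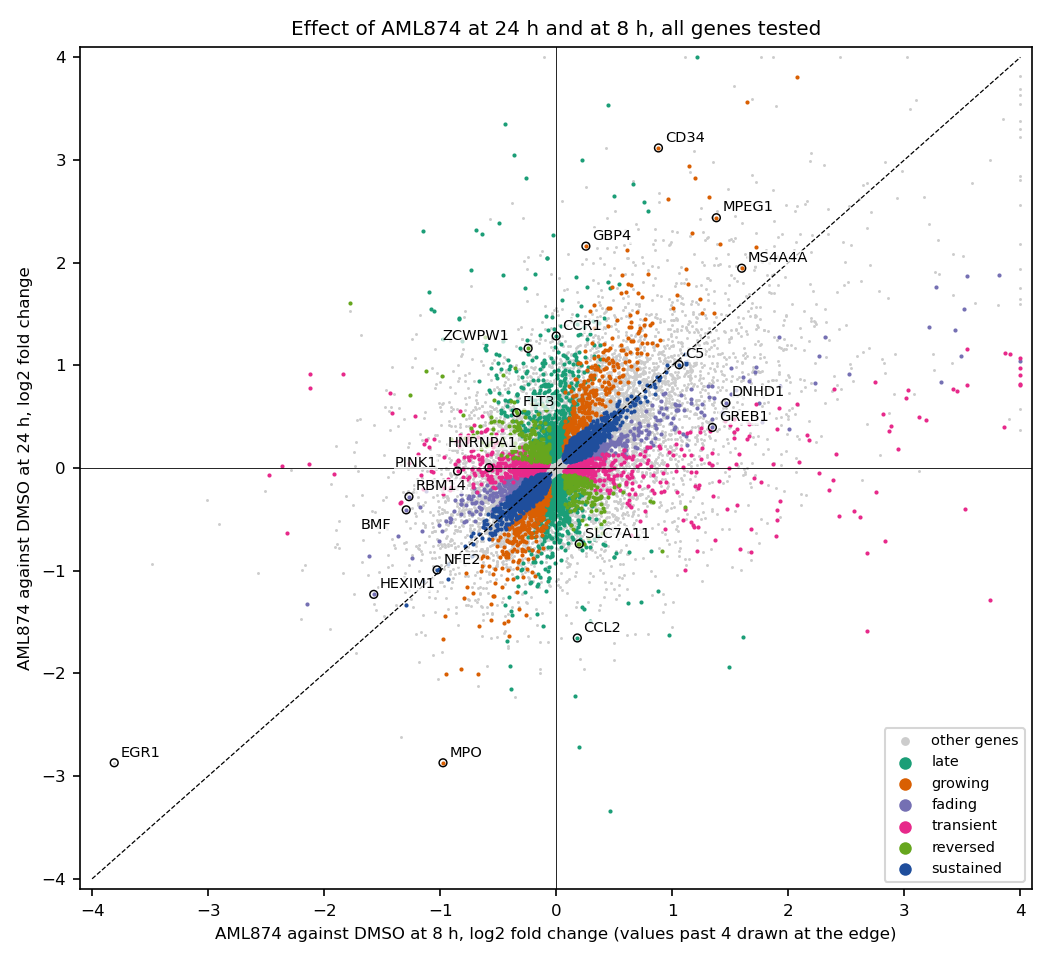
Effect of AML874 at 24 h (vertical axis) against its effect at 8 h (horizontal axis), both as log2 fold changes over DMSO at the same time, with 1 point per gene tested, colours for the classes, circles for labelled genes and a dashed line where both effects are equal. Late genes lie along the vertical axis and transient genes along the horizontal axis, CD34 lies at 3.12 and 0.88, and MPO at -2.87 and -0.98. Values past 4 are drawn at the edge.

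The calls sort the genes into classes. Late effects, called at 24 h and not at 8 h with a called difference, were the most frequent class of changing effect, with 1893 genes (9.05%), 859 higher and 1034 lower. Growing effects, called at both times with 1 sign and larger at 24 h, comprised 849 genes (4.06%), 362 higher and 487 lower. Fading effects, of 1 sign and smaller at 24 h, comprised 467 genes (2.23%), with 227 higher and 240 lower. Transient effects, called at 8 h and not at 24 h, comprised 1097 genes (5.24%), 553 higher and 544 lower at 8 h. Reversed effects, with opposite signs at the 2 times, comprised 531 genes (2.54%), of which 273 were higher at 24 h and 258 lower.

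The sizes differed between these classes. Growing higher genes had a median effect of 0.66 at 24 h and 0.26 at 8 h, whereas growing lower genes had -0.41 and -0.17. Fading higher genes had medians of 0.25 at 24 h and 0.56 at 8 h. Reversed effects were small on both sides, with medians of 0.18 at 24 h and -0.18 at 8 h for those higher at 24 h. Sustained effects, called at both times with 1 sign and with the 95% interval of the difference within 0.3 of 0, were found for 2574 genes (12.3%), 969 higher and 1605 lower. A further 1267 genes had effects of 1 sign at both times with an interval too wide to place them. Classes rest on calls at both times, so a gene with 1 effect near the threshold can change class with the setting, as stated below for several genes over 23 other settings. Medians follow from how the classes are defined and are given as a description.

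**Figure D2:**
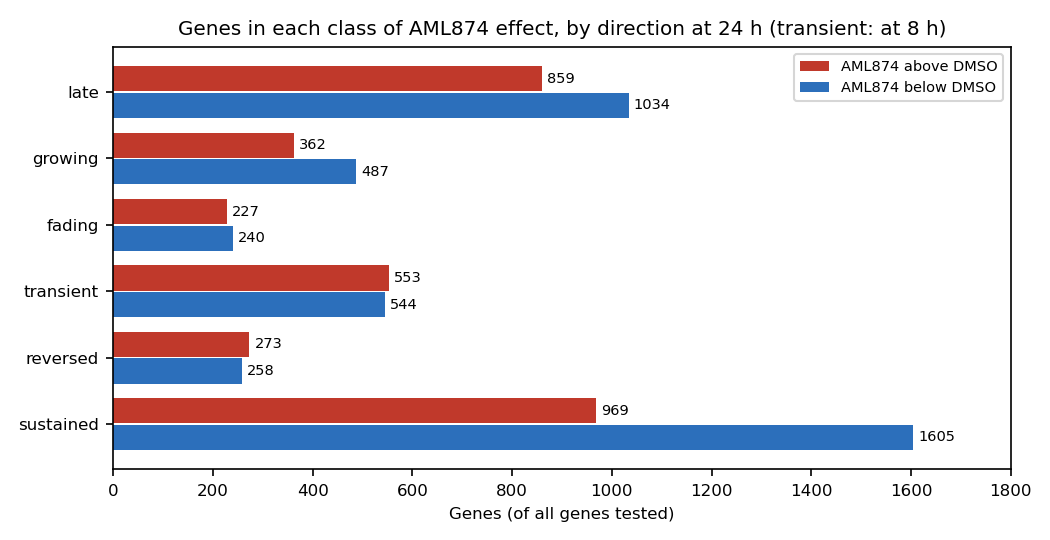
Number of genes in each class of AML874 effect (horizontal axis) for genes higher and genes lower with AML874, at 24 h or, for transient effects, at 8 h. Sustained lower effects are the most numerous with 1605 genes, and late effects lead the changing classes with 859 higher and 1034 lower genes.

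The late minus early difference equals the change over time with AML874 minus that in DMSO culture. Of the 4944 genes, 1771 (35.8%) had a called change over time in the AML874 arm but not the DMSO arm, and 723 (14.6%) in the DMSO arm but not the AML874 arm. Another 1942 (39.3%) had called changes in both arms in the same direction by different amounts, and 418 (8.45%) in opposite directions. Neither arm had a call for 90 genes (1.82%). For comparison, 10946 genes (52.3%) differed between 24 h and 8 h of AML874, 5300 higher at 24 h (25.3%) and 5646 lower (27%). Between 24 h and 8 h of DMSO 8898 genes differed (42.5%), 4151 higher (19.8%) and 4747 lower (22.7%), so that a late or transient label does not by itself say which arm moved. The change in each arm is given below for only some of the genes named.

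**Figure D3:**
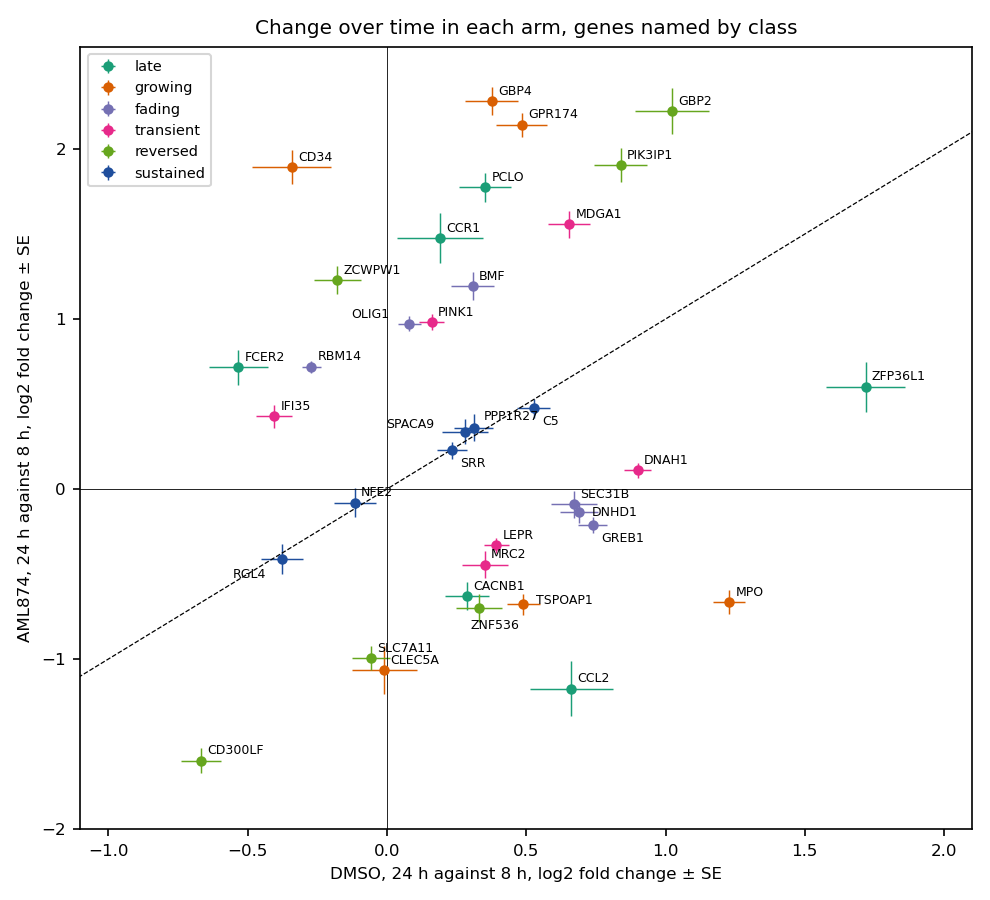
Change between 24 h and 8 h of AML874 (vertical axis) against the change between 24 h and 8 h of DMSO (horizontal axis), as log2 fold changes with their SE, for the genes named by class. The dashed line marks equal change in both arms, on which the sustained genes lie. MPO is at -0.67 with AML874 and 1.23 in DMSO culture, and CD34 at 1.89 with AML874 and -0.34 in DMSO culture.

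Genes of antigen presentation were higher with AML874 mainly at 24 h. MHC class II molecules carry peptides to CD4 T cells, their genes are switched on by the coactivator CIITA, and HLA-DM loads the peptides. Of 17 class II presentation genes tested, 12 had a higher effect at 24 h than at 8 h and 0 a lower one, against 11.1% and 12.5% of all genes. Their median effect was 0.70 at 24 h and 0.18 at 8 h, against 0.0036 and 0.0023 over all genes. The list held 7 growing, 4 late and 1 reversed gene.

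HLA-DRA, the alpha chain of HLA-DR (chr6:32439842-32445046 in GRCh38), had 393, 397 and 389.5 CPM in AML874 libraries at 24 h, against 253, 237 and 237 CPM in DMSO libraries. It had 283, 284 and 284 CPM in AML874 libraries at 8 h, against 251, 250.4 and 268 CPM in DMSO libraries. The AML874 libraries were above all DMSO libraries at both times, by far more at 24 h. The effect was 0.70 ± 0.03 at 24 h and 0.14 ± 0.03 at 8 h, a difference of 0.55 ± 0.04 (edgeR adjusted p = 1.87e-13). The change over time was 0.47 with AML874, against -0.082 in DMSO culture.

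Both chains of HLA-DP and the loading factor HLA-DMA followed the same course. The differences were 0.54 ± 0.04 for HLA-DPA1, 0.59 ± 0.04 for HLA-DPB1 and 0.75 ± 0.07 for HLA-DMA, whose effect grew to 1.07 at 24 h, against 0.33 at 8 h. CIITA and HLA-DOA, which regulates HLA-DM, lie outside the naming rule and were chosen after their values were seen. CIITA had an effect of 0.88 ± 0.04 at 24 h and 0.46 ± 0.04 at 8 h (difference edgeR adjusted p = 5.76e-07). HLA-DOA averaged 5.67 CPM with AML874 at 24 h, against 1.3 CPM with DMSO, and 1.76 CPM with AML874 at 8 h, against 1.16 CPM with DMSO. Reads that align to several HLA genes are in no gene's count, which limits comparisons within this family.

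MHC class I genes, whose products show peptides of the cell's own proteins to CD8 T cells, also had higher effects at 24 h. Of 22 tested, 17 had a higher effect at 24 h than at 8 h and 0 a lower one, and the median effect was 0.23 at 24 h and 0.045 at 8 h. Against DMSO, 16 were higher and 0 lower at 24 h, while 8 were higher and 8 lower at 8 h. The list held 6 growing, 5 reversed, 3 late and 3 transient lower genes. Growing genes included some that make and move peptides. TAP1, a peptide pump of the endoplasmic reticulum, had an effect of 0.71 ± 0.03 at 24 h and 0.34 ± 0.03 at 8 h, and PSME1, a proteasome activator subunit, 0.40 ± 0.03 at 24 h and 0.069 ± 0.03 at 8 h. PSME1 was late in 9 of 23 other settings, among them those without any 1 library of 8 h. ERAP2, which trims peptides, had 0.64 ± 0.03 at 24 h and 0.15 ± 0.04 at 8 h (difference edgeR adjusted p = 3.04e-09). TAPBPL, a peptide editor, reversed, with 0.44 ± 0.05 at 24 h and -0.19 ± 0.05 at 8 h. HLA-B, a classical heavy chain, and B2M, the light chain, were chosen after their values were seen and were transiently lower, with effects of -0.022 and -0.017 at 24 h and of -0.16 and -0.21 at 8 h. The difference of HLA-B was not called with library totals alone (edgeR adjusted p = 0.131), with unstranded counts (adjusted p = 0.169), nor without any 1 of AML874 24 h replicate 1, AML874 8 h replicate 2, DMSO 24 h replicate 3 and DMSO 8 h replicates 2 and 3, with adjusted p of 0.0507 to 0.0883.

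Interferon-stimulated genes, which cells turn on after interferon signals through STAT and IRF factors, had 22 higher and 1 lower differences among 47 tested of 49. Their median effect was 0.38 at 24 h and 0.030 at 8 h. Late higher effects were found for 10, growing higher for 6, transient lower for 4 and sustained lower for 4. Members of the list thus took different courses.

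GBP4, a guanylate-binding protein of interferon defence (chr1:89181148-89198932), had 10.7, 12 and 11.5 CPM in AML874 libraries at 24 h, against 2.54, 2.8 and 2.31 CPM in DMSO libraries. It had 2.16, 2.36 and 2.54 CPM in AML874 libraries at 8 h, against 2.08, 1.7 and 2.15 CPM in DMSO libraries. The AML874 libraries at 24 h stood far above every other library, and those at 8 h were all above the DMSO libraries by a small margin. The difference was 1.90 ± 0.13 (95% interval 1.65 to 2.16, edgeR adjusted p = 1.68e-13). GBP4 was growing in 19 of 23 other settings and late in the rest, limma-voom among them. IRF1, a transcription factor of the interferon response (chr5:132481609-132490798), had 101, 104 and 104 CPM in AML874 libraries at 24 h, against 49.8, 52 and 49.9 CPM in DMSO libraries. It had 53.5, 53.4 and 53.8 CPM in AML874 libraries at 8 h, against 46.4, 48.5 and 45.8 CPM in DMSO libraries. Again the groups did not overlap at either time, and the effect was 1.03 ± 0.03 at 24 h and 0.19 ± 0.03 at 8 h. IFI16, a DNA sensor, grew in the same way, to 1.03 ± 0.04 at 24 h, against 0.26 ± 0.04 at 8 h.

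Other members took other courses. GBP2 reversed, with 51.2, 43.2 and 40.8 CPM in AML874 libraries at 24 h, against 33.5, 25.5 and 26.3 CPM in DMSO libraries. It had 10.1, 9.23 and 9.58 CPM in AML874 libraries at 8 h, against 14.5, 12.6 and 15 CPM in DMSO libraries. AML874 was thus above DMSO at 24 h and below it at 8 h, on top of a rise in DMSO culture of 1.02 on the log2 scale. IFI35, which binds other interferon-induced proteins, was transiently lower, with an effect of 0.083 ± 0.06 at 24 h and -0.75 ± 0.07 at 8 h. Its level in DMSO culture fell by 0.40 on the log2 scale over the same hours.

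Some promoters of these genes carry known motifs. The core of the interferon-stimulated response element, searched on both strands as GAAA, any 2 bases and GAAA again, in the 250 bases before the gene start, was found in 17 of the 28 interferon-list promoters in the RefSeq table for GRCh38.p14 (60.7%), against 709 of all 22114 (3.21%). The Y box of class II promoters, searched as CTGATTGG on both strands, was in 4 of 11 class II promoters (36.4%), against 903 of all 22114 (4.08%). Several or overlapping matches in 1 promoter counted once. A match is a string of letters and not a measured binding site. GBP4, IRF1 and IFI35 had no match of the first motif in this window. HLA-DPB1 and HLA-DOA, which grew, had no Y box in it. Whether a motif goes with the course of a gene was not tested. Of the 3 promoters shown, 5′ to 3′ with the motif in capitals, the first holds the Y box and the other two the interferon motif, with which genes took different courses. HLA-DMA (chr6:32953098-32953347, minus strand) grew, LGALS3BP (chr17:78979924-78980173, minus strand), which encodes a secreted glycoprotein, was late, and ISG15 (chr1:1013247-1013496, plus strand), a ubiquitin-like modifier, was transiently lower and has overlapping matches. LGALS3BP and ISG15 were chosen after their values were seen.
HLA-DMA: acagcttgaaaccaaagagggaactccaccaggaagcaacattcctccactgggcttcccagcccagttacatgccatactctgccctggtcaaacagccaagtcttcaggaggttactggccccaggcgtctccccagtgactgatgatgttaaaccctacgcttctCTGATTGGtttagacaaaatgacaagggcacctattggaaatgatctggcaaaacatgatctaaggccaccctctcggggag
LGALS3BP: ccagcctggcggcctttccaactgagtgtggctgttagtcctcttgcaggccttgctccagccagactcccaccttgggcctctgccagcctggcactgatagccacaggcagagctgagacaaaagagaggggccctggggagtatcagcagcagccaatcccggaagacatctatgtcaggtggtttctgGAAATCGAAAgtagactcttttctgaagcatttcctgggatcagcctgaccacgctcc
ISG15: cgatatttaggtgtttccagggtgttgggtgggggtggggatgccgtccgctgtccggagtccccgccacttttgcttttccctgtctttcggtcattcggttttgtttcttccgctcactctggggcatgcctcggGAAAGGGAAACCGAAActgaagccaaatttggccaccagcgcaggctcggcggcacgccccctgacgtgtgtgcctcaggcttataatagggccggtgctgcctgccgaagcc

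LGALS3BP had an effect of 0.56 ± 0.12 at 24 h and -0.17 ± 0.13 at 8 h (difference edgeR adjusted p = 0.00239). ISG15 had 0.059 ± 0.06 at 24 h and -0.34 ± 0.06 at 8 h (edgeR adjusted p = 0.000594). In ISG15 the AML874 arm had no call over time, and DMSO culture fell by 0.48 on the log2 scale.

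Surface and lineage genes of myeloid cells were among those with large differences. CD34, a surface sialomucin of blood stem and progenitor cells (ENSG00000174059.17, chr1:207880972-207911402), had 5.53, 6.97 and 6.15 CPM in AML874 libraries at 24 h, against 0.622, 0.736 and 0.789 CPM in DMSO libraries. It had 1.83, 1.76 and 1.38 CPM in AML874 libraries at 8 h, against 0.906, 0.83 and 0.993 CPM in DMSO libraries. The gene was near 1 CPM without the compound and was higher in all AML874 libraries at both times, most at 24 h. The difference was 2.24 ± 0.17 (95% interval 1.88 to 2.59, edgeR adjusted p = 4.89e-12), with an effect of 3.12 ± 0.11 at 24 h and 0.88 ± 0.13 at 8 h. It changed by 1.89 over time with AML874 and by -0.34 in DMSO culture.

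MPO, myeloperoxidase of the primary granules (ENSG00000005381.8, chr17:58269856-58280935), went the other way. It had 4.25, 5.07 and 5.07 CPM in AML874 libraries at 24 h, against 33.6, 37.6 and 33.7 CPM in DMSO libraries. It had 7.55, 7.72 and 7.5 CPM in AML874 libraries at 8 h, against 14.6, 16 and 14.2 CPM in DMSO libraries. Levels with AML874 were the lowest of all groups at 24 h, when DMSO culture had its highest. The effect was -2.87 ± 0.07 at 24 h and -0.98 ± 0.06 at 8 h, a difference of -1.89 ± 0.09 (edgeR adjusted p = 3.89e-16). MPO fell by 0.67 with AML874 and rose by 1.23 in DMSO culture, so most of the difference lies in a rise that the AML874 libraries did not show.

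Among 12 primary granule genes tested, 6 had lower and 2 higher differences, against 12.5% and 11.1% of all genes. Their median effect was -0.21 at 24 h and -0.054 at 8 h. AZU1, azurocidin, had 0.74 ± 0.0574 CPM with AML874 at 24 h, against 2.08 ± 0.402 CPM with DMSO (SD, n = 3 each). At 8 h it had 0.971 ± 0.0124 CPM with AML874, against 1.43 ± 0.0792 CPM with DMSO. Its difference was -0.92 ± 0.20. LYZ, lysozyme, was late, with 157, 155 and 151 CPM in AML874 libraries at 24 h, against 234, 226 and 234 CPM in DMSO libraries. It had 348, 349.7 and 348 CPM in AML874 libraries at 8 h, against 346, 353 and 349 CPM in DMSO libraries. The libraries could not be separated at 8 h, LYZ fell in both arms afterwards, and the AML874 libraries reached lower levels at 24 h (difference -0.58 ± 0.03, edgeR adjusted p = 6.03e-15). MS4A3, a membrane protein of granulocyte progenitors, reversed, with an effect of -0.17 ± 0.06 at 24 h and 0.54 ± 0.06 at 8 h.

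Macrophage genes had differences in both directions. Of 32 tested of 41, 8 had higher and 5 lower differences, against 11.1% and 12.5% of all genes. The lower count was thus near the share over all genes. The median effect was -0.036 at 24 h and 0.016 at 8 h, while the median of the differences was 0.18. MPEG1, macrophage perforin-2, already rose at 8 h and grew, to 207 ± 6.87 CPM with AML874 at 24 h, against 38.1 ± 1.14 CPM with DMSO. At 8 h it had 91.6 ± 2.94 CPM with AML874, against 35.2 ± 1.34 CPM with DMSO (SD, n = 3 each). MS4A4A, a membrane protein of macrophages, had effects of 1.95 ± 0.04 at 24 h and 1.60 ± 0.04 at 8 h. By contrast CSF1R, the receptor for macrophage colony-stimulating factor, had -0.98 ± 0.06 at 24 h and -0.25 ± 0.06 at 8 h, and CLEC5A, a lectin receptor, -2.01 ± 0.13 at 24 h and -0.95 ± 0.12 at 8 h. CX3CR1, the fractalkine receptor, was lower late, with -0.85 ± 0.08 at 24 h and -0.17 ± 0.08 at 8 h.

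**Figure D4:**
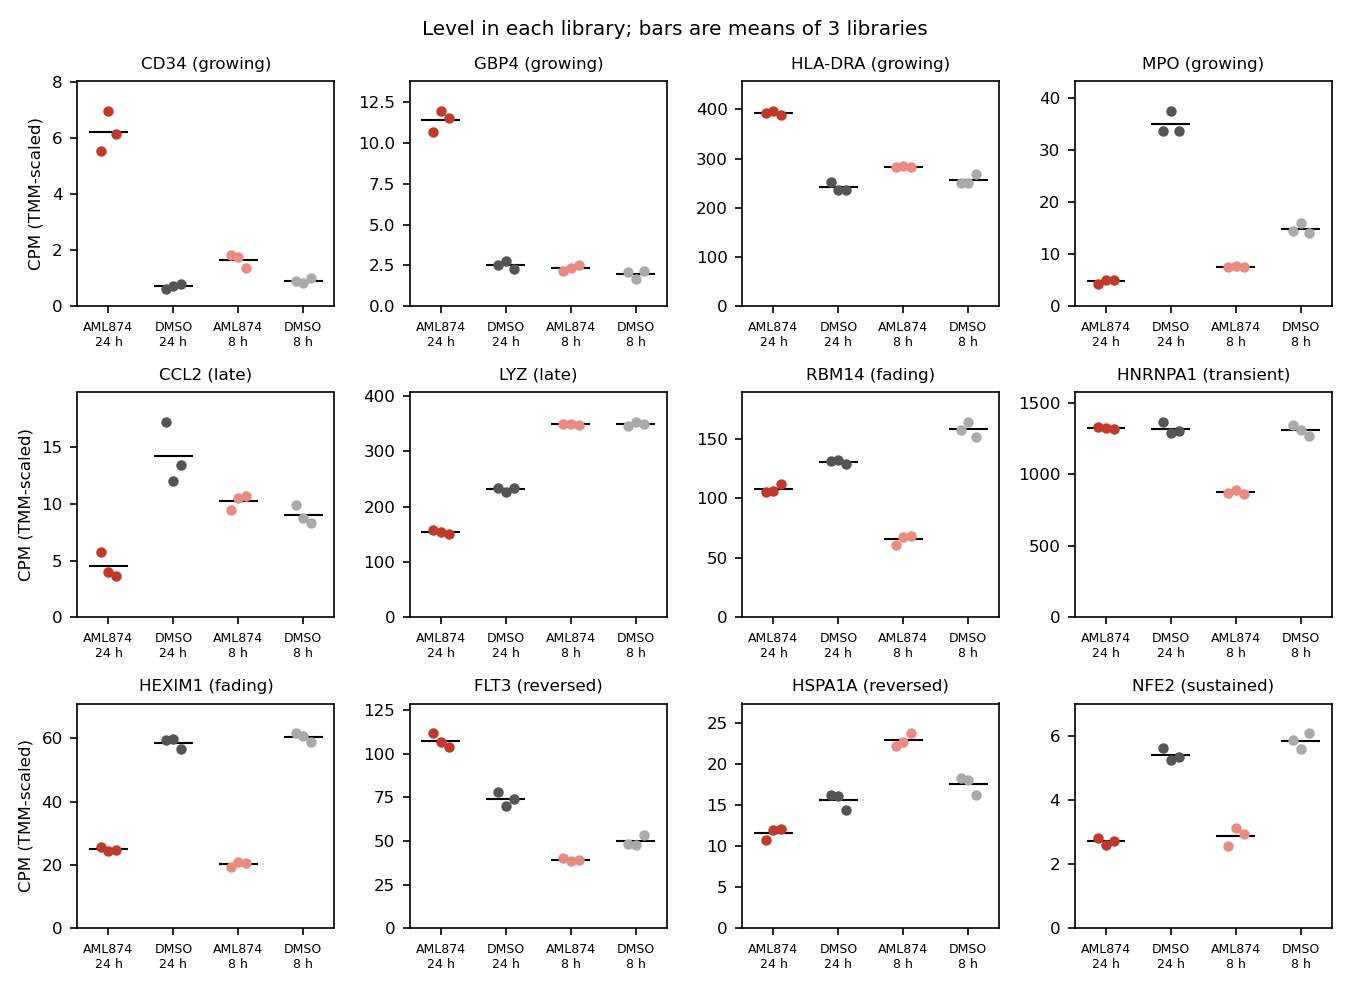
Levels in CPM (vertical axis, from 0) of named genes in each of the 12 libraries, with 1 point per library, bars for the means of 3 libraries, and the class of each gene in brackets. CD34, GBP4 and HLA-DRA are highest with AML874 at 24 h, MPO is lowest there and highest with DMSO at 24 h, and RBM14 and HNRNPA1 are lowest with AML874 at 8 h.

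Other surface and signalling genes were late or growing in both directions. CCR1, a chemokine receptor, had 20.5, 19 and 15.8 CPM in AML874 libraries at 24 h, against 8.51, 7.17 and 7 CPM in DMSO libraries. It had 6.92, 6.62 and 6.3 CPM in AML874 libraries at 8 h, against 6.54, 6.3 and 7.05 CPM in DMSO libraries. The groups overlapped at 8 h and were apart at 24 h, with a difference of 1.29 ± 0.21. GPR174, a receptor for lysophosphatidylserine, grew to an effect of 2.62 ± 0.07 at 24 h, against 0.96 ± 0.09 at 8 h. FCER2, the low-affinity IgE receptor CD23, had 1.08 ± 0.10 at 24 h and -0.17 ± 0.11 at 8 h, and PCLO, a scaffold protein of synapses, 1.35 ± 0.08 at 24 h and -0.073 ± 0.10 at 8 h. FCER2 was late in 22 of 23 other settings and reversed with a replicate block within the 24 h libraries of AML874 and DMSO. CD38, an NAD-consuming surface enzyme, grew to 1.12 ± 0.03, against 0.73 ± 0.03 at 8 h. CD33, the myeloid lectin, and CSF3R, the G-CSF receptor, fell further or fell late, with effects of -0.57 ± 0.03 and -0.52 ± 0.03 at 24 h and of -0.11 ± 0.03 and -0.064 ± 0.03 at 8 h.

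Of the stem and progenitor list, 10 of 26 tested had higher and 5 lower differences, against 11.1% and 12.5% of all genes. FLT3, a receptor kinase of blood progenitors (chr13:28003274-28100592), reversed, with 112, 106 and 104 CPM in AML874 libraries at 24 h, against 77.8, 69.8 and 74.2 CPM in DMSO libraries. It had 40.4, 38.6 and 39 CPM in AML874 libraries at 8 h, against 48.5, 47.9 and 53.2 CPM in DMSO libraries. FLT3 rose in both arms over time, by 1.45 with AML874 and by 0.57 in DMSO culture. AML874 libraries lay above all DMSO libraries at 24 h and under them at 8 h (difference 0.88 ± 0.08, edgeR adjusted p = 2.55e-07). CDK6, a kinase of G1 phase, followed with 0.30 ± 0.02 at 24 h and -0.063 ± 0.02 at 8 h, and was late in 5 of 23 other settings. Among myeloid transcription factors 13 of 33 tested had higher and 7 lower differences, which became 8 and 9 with library totals alone. ETS2 grew to 1.20 ± 0.02, against 0.56 ± 0.02 at 8 h, and IRF8, a factor of monocyte and dendritic cells, to 0.66 ± 0.02, against 0.40 ± 0.03 at 8 h. CEBPB fell late, with -0.50 ± 0.04 at 24 h and -0.084 ± 0.04 at 8 h.

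Late lower genes with the largest differences included CCL2, a chemokine that attracts monocytes. It had 5.78, 4.04 and 3.67 CPM in AML874 libraries at 24 h, against 17.2, 12 and 13.4 CPM in DMSO libraries. It had 9.48, 10.5 and 10.7 CPM in AML874 libraries at 8 h, against 9.93, 8.75 and 8.35 CPM in DMSO libraries. The groups overlapped at 8 h, and at 24 h every AML874 library was under every DMSO library (difference -1.84 ± 0.22, edgeR adjusted p = 4.39e-05). CCL2 was late in 22 of 23 other settings and reversed with a replicate block within the 24 h libraries of AML874 and DMSO. ZFP36L1, which speeds the decay of AU-rich transcripts, rose in both arms, by 0.60 with AML874 and by 1.72 in DMSO culture. Its effect was -1.20 ± 0.13 at 24 h and -0.085 ± 0.15 at 8 h. TSPOAP1, which binds the mitochondrial translocator protein, had -1.43 ± 0.06 at 24 h and -0.26 ± 0.06 at 8 h, and CACNB1, a calcium channel subunit, -0.93 ± 0.08 at 24 h and -0.0093 ± 0.08 at 8 h.

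Many feedback genes of growth factor signalling were lower with AML874 than with DMSO, more so at 24 h. ERK feedback genes, which ERK induces and many of which restrain it, had 8 lower and 1 higher differences among 14 tested of 18. Their median effect was -0.60 at 24 h and -0.22 at 8 h. Both arms moved, with a median change over time of -0.25 with AML874 and 0.21 in DMSO culture. ETV5, a transcription factor induced by ERK (chr3:186046308-186110318), had 7.68, 7.76 and 7.6 CPM in AML874 libraries at 24 h, against 21.9, 18.6 and 18.9 CPM in DMSO libraries. It had 13, 13.4 and 12.5 CPM in AML874 libraries at 8 h, against 15.8, 15.2 and 17.6 CPM in DMSO libraries. AML874 libraries were below DMSO at both times, and more so at 24 h (difference -1.05 ± 0.08, edgeR adjusted p = 9.03e-12). The restraining proteins SPRED1, SPRED2 and SPRY2 had effects of -1.02 ± 0.04, -0.59 ± 0.03 and -0.63 ± 0.04 at 24 h, against -0.21 ± 0.04, -0.17 ± 0.03 and -0.17 ± 0.04 at 8 h.

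STAT5 and cytokine feedback genes had 10 lower and 0 higher differences among 15, with medians of -0.32 at 24 h and -0.12 at 8 h. PIM1, a kinase induced by STAT5, had 132, 131 and 124 CPM in AML874 libraries at 24 h, against 189, 184 and 179.8 CPM in DMSO libraries. It had 180.1, 178 and 182 CPM in AML874 libraries at 8 h, against 189, 187 and 192 CPM in DMSO libraries. The groups were close at 8 h and far apart at 24 h (difference -0.44 ± 0.04, edgeR adjusted p = 1.47e-11). PIM3 and the cyclin CCND3 had differences of -0.37 ± 0.05 and -0.37 ± 0.05. ID1, an inhibitor of helix-loop-helix factors, reversed, with -0.60 ± 0.06 at 24 h and 0.14 ± 0.05 at 8 h, but was late in 8 of 23 other settings, 7 of which leave out 1 library.

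Mitosis genes were lower mainly at 24 h. Of 28 tested, 16 had lower and 0 higher differences, with median effects of -0.18 at 24 h and -0.048 at 8 h. The count was 7 without AML874 8 h replicate 1, 8 without DMSO 24 h replicate 2, 9 without DMSO 8 h replicate 2 or 3, 10 without DMSO 24 h replicate 3, and 10 with a filter of 1 CPM. MKI67, a marker of cycling cells, had 696 ± 27.8 CPM with AML874 at 24 h, against 972 ± 8.3 CPM with DMSO (SD, n = 3 each). It had 928 ± 29.5 CPM with AML874 at 8 h, against 1019.5 ± 37.2 CPM with DMSO. TOP2A, CDK1 and KIF23, an enzyme, a kinase and a motor of mitosis, had differences of -0.21 ± 0.04, -0.21 ± 0.04 and -0.26 ± 0.04. DNA replication genes were mostly lower at both times, 20 of 34 at 24 h and 23 of 34 at 8 h, and 13 were sustained lower. Their differences were higher for 8 and lower for 2, which became 4 and 6 with library totals alone, and the 8 became 5 without AML874 24 h replicate 3 and 13 with a filter of 1 CPM. POLA1, a subunit of DNA polymerase alpha, faded, with -0.21 ± 0.03 at 24 h and -0.38 ± 0.03 at 8 h.

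Several stress genes were lower at 24 h and higher at 8 h. Heat shock proteins fold proteins in the cytosol, and of 19 tested 11 had lower and 0 higher differences, with a median effect of -0.18 at 24 h and 0.036 at 8 h. Of these 8 were reversed, lower at 24 h and higher at 8 h, as were 258 of all genes tested. HSPA1A, an inducible HSP70 with a near-identical copy, HSPA1B, had 10.8, 12 and 12.1 CPM in AML874 libraries at 24 h, against 16.3, 16.2 and 14.4 CPM in DMSO libraries. It had 22.2, 22.7 and 23.9 CPM in AML874 libraries at 8 h, against 18.3, 18.1 and 16.3 CPM in DMSO libraries. AML874 lay below DMSO at 24 h and above it at 8 h without overlap (difference -0.81 ± 0.08, edgeR adjusted p = 9.52e-09). Reads shared with HSPA1B are in neither count. HSPA4L, an HSP110 protein, and the cochaperones CHORDC1 and BAG3 had effects of -0.41 ± 0.03, -0.28 ± 0.03 and -0.17 ± 0.04 at 24 h, against 0.12 ± 0.03, 0.14 ± 0.03 and 0.24 ± 0.04 at 8 h.

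Endoplasmic reticulum chaperones showed 8 lower and 1 higher differences among 18. At 24 h 6 of them were higher and 5 lower, against 11 higher and 2 lower at 8 h. The median effect was -0.015 at 24 h and 0.15 at 8 h, and 3 genes were reversed, so the list as a whole did not turn lower. HSPA5, the HSP70 of that compartment, had 377, 394 and 400.0 CPM in AML874 libraries at 24 h, against 506, 506 and 491 CPM in DMSO libraries. It had 542, 538 and 546 CPM in AML874 libraries at 8 h, against 502, 504 and 474 CPM in DMSO libraries. HSPA5 had no called change over time in DMSO culture, and the AML874 libraries lay below it at 24 h and above it at 8 h (difference -0.49 ± 0.05, edgeR adjusted p = 3.32e-09). MANF, a secreted stress protein, had -0.17 ± 0.03 at 24 h and 0.33 ± 0.03 at 8 h, and HSP90B1 -0.11 ± 0.02 at 24 h and 0.12 ± 0.02 at 8 h. HYOU1, another HSP70 relative, faded to 0.26 ± 0.03, against 0.54 ± 0.03 at 8 h.

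ATF4 targets, which supply amino acids under stress, had 15 lower and 1 higher differences among 26, with medians of -0.18 at 24 h and 0.084 at 8 h. SLC7A11, the cystine transporter, had 4.62, 4.45 and 5.06 CPM in AML874 libraries at 24 h, against 7.42, 8.04 and 8.1 CPM in DMSO libraries. It had 9.66, 9.38 and 9.08 CPM in AML874 libraries at 8 h, against 7.58, 8.58 and 8.32 CPM in DMSO libraries. It was lower at 24 h than at 8 h with AML874 and had no called change with DMSO (difference -0.94 ± 0.10, edgeR adjusted p = 5.18e-09). SLC7A11 was reversed in 19 of 23 other settings and late in the rest, each of which leaves out 1 library of 8 h. MTHFD2 and SHMT2, enzymes of mitochondrial one-carbon metabolism, reversed by smaller amounts, with -0.19 ± 0.03 and -0.085 ± 0.02 at 24 h and 0.075 ± 0.03 and 0.15 ± 0.02 at 8 h. MTHFD2 was late in 8 of 23 other settings, among them 7 that leave out 1 library. TRIB3, a pseudokinase induced by ATF4, was lower late, with -0.45 ± 0.04 at 24 h and -0.031 ± 0.04 at 8 h.

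Reversals upward were led by ZCWPW1, a reader of histone methylation. It had 6.28, 6.22 and 6.14 CPM in AML874 libraries at 24 h, against 2.89, 2.68 and 2.75 CPM in DMSO libraries. It had 2.71, 2.62 and 2.62 CPM in AML874 libraries at 8 h, against 3.1, 3.05 and 3.26 CPM in DMSO libraries. The groups did not overlap at either time (difference 1.41 ± 0.12, edgeR adjusted p = 2.36e-11). ZCWPW1 was reversed in 21 of 23 other settings, and late with library totals alone and without DMSO 8 h replicate 3. PIK3IP1, an inhibitor of PI3 kinase, had 0.50 ± 0.09 at 24 h and -0.57 ± 0.11 at 8 h. Downward, ZNF536, a zinc finger repressor, had -0.64 ± 0.08 at 24 h and 0.39 ± 0.08 at 8 h, and CD300LF, an inhibitory receptor, -0.74 ± 0.08 at 24 h and 0.19 ± 0.07 at 8 h. CD300LF was late in 8 of 23 other settings, among them those without any 1 library of 8 h.

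Many RNA-processing genes were lower at both times, several of them less so at 24 h. Of 26 splicing kinases and regulators, 14 were lower at 24 h and 17 at 8 h. The late minus early difference was higher for 10 and lower for 1, with 7 fading lower and 6 sustained lower genes. RBM14, a coactivator that binds RNA (chr11:66616582-66627347), had 105, 106 and 112 CPM in AML874 libraries at 24 h, against 132, 132 and 129 CPM in DMSO libraries. It had 61.2, 67.3 and 68.5 CPM in AML874 libraries at 8 h, against 158, 164 and 152 CPM in DMSO libraries. The AML874 libraries at 8 h were lowest, and at 24 h they were still below every DMSO library. The effect was -0.28 ± 0.03 at 24 h and -1.27 ± 0.04 at 8 h (difference edgeR adjusted p = 2.48e-15). HNRNPA1, a splicing factor with many processed copies in the genome, had 1334, 1325 and 1316 CPM in AML874 libraries at 24 h, against 1368, 1290.2 and 1304 CPM in DMSO libraries. It had 873, 888 and 865 CPM in AML874 libraries at 8 h, against 1347, 1310.5 and 1268 CPM in DMSO libraries. The groups overlapped at 24 h, where the effect was 0.0044 ± 0.03, and were far apart at 8 h, where it was -0.58 ± 0.03. TRA2A and HNRNPH1, other splicing factors, faded to -0.20 ± 0.03 and -0.15 ± 0.03, against -0.62 ± 0.03 and -0.49 ± 0.03 at 8 h.

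HEXIM1, which holds the elongation kinase P-TEFb inactive, stayed low. It had 25.7, 24.5 and 24.9 CPM in AML874 libraries at 24 h, against 59.6, 59.7 and 56.8 CPM in DMSO libraries. It had 19.4, 20.8 and 20.8 CPM in AML874 libraries at 8 h, against 61.8, 60.9 and 58.7 CPM in DMSO libraries. AML874 libraries were far below DMSO libraries at both times, and the effect of -1.23 ± 0.04 at 24 h was smaller than that of -1.57 ± 0.04 at 8 h by 0.34 ± 0.05. BMF, which promotes apoptosis by binding BCL2 proteins, recovered more, to 40.0 ± 0.969 CPM with AML874 at 24 h, against 53.1 ± 1.29 CPM with DMSO. It had 17.5 ± 1.04 CPM with AML874 at 8 h, against 42.9 ± 4.51 CPM with DMSO (SD, n = 3 each). OLIG1, a helix-loop-helix factor, had -0.23 ± 0.04 at 24 h and -1.12 ± 0.04 at 8 h. PINK1, a kinase of mitochondrial quality control, KLF2, an immediate early transcription factor, and MDGA1, a membrane-anchored adhesion protein, were transiently lower. They had effects of -0.029 ± 0.04, -0.013 ± 0.08 and 0.11 ± 0.07 at 24 h and of -0.85 ± 0.05, -0.73 ± 0.09 and -0.80 ± 0.08 at 8 h.

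In some early rises that later narrowed, the DMSO libraries moved. DMSO culture had a called change over time for 70% of fading higher and 63.1% of transient higher genes, close to the 64.2% of sustained genes, so this does not set them apart. GREB1, a gene known from hormone response, had 14.7, 15.7 and 14.5 CPM in AML874 libraries at 24 h, against 11.2, 11.7 and 11.3 CPM in DMSO libraries. It had 17.3, 17.8 and 17 CPM in AML874 libraries at 8 h, against 7.4, 6.63 and 6.52 CPM in DMSO libraries. AML874 libraries were above DMSO at both times, but over time the level changed by -0.21 with AML874, against a rise of 0.74 in DMSO culture. DNAH1, a dynein heavy chain, had 23.3, 23.7 and 22.8 CPM in AML874 libraries at 24 h, against 21.6, 23.5 and 23.4 CPM in DMSO libraries. It had 21.2, 22.8 and 20.7 CPM in AML874 libraries at 8 h, against 12.1, 11.6 and 13.1 CPM in DMSO libraries. Only the DMSO libraries at 8 h stood apart, at the low end, and the effect was 0.024 ± 0.05 at 24 h and 0.81 ± 0.05 at 8 h. DNHD1 and SEC31B, a dynein relative and a coat protein, had a similar course, with DMSO changes of 0.69 and 0.67 and effects of 0.64 and 0.33 at 24 h, against 1.46 and 1.09 at 8 h. MRC2, a collagen receptor, and LEPR, the leptin receptor, had transient rises, with effects of -0.14 ± 0.08 and -0.093 ± 0.05 at 24 h and of 0.65 ± 0.08 and 0.63 ± 0.05 at 8 h.

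Cholesterol synthesis genes had a moving control as well. Of 23 genes tested, 8 had lower and 1 higher differences, and the count of lower ones was 5 without DMSO 8 h replicate 3, 5 in a model of only the 4 groups and 13 with a replicate block within the 24 h libraries of AML874 and DMSO. The list rose in DMSO culture by a median of 0.48 on the log2 scale, with 20 calls. Its median effect was 0.15 at 24 h and 0.17 at 8 h. At 24 h 10 genes were higher and 5 lower, against 11 and 0 at 8 h, and 1 gene of the list was transient. HMGCS1, an early enzyme of the pathway, had 64.6, 59 and 55 CPM in AML874 libraries at 24 h, against 63.4, 57 and 53.4 CPM in DMSO libraries. It had 57.5, 53.5 and 52.8 CPM in AML874 libraries at 8 h, against 41.5, 41.4 and 41.6 CPM in DMSO libraries. Only the DMSO libraries at 8 h were low, and the effect was 0.04 ± 0.06 at 24 h and 0.40 ± 0.06 at 8 h. SREBF1 and NR1H3, lipid-regulating transcription factors, were also transiently higher, with effects of -0.052 ± 0.03 and 0.09 ± 0.07 at 24 h and 0.28 ± 0.03 and 0.65 ± 0.08 at 8 h.

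Sustained genes had the same effect at both times within the stated margin. C5, a complement component, had 16.9, 17.2 and 17.6 CPM in AML874 libraries at 24 h, against 8.76, 8.37 and 8.61 CPM in DMSO libraries. It had 13.3, 12.5 and 11.4 CPM in AML874 libraries at 8 h, against 6.26, 5.68 and 5.98 CPM in DMSO libraries. Both arms rose by about the same amount, and the effect was 1.01 ± 0.06 at 24 h and 1.06 ± 0.06 at 8 h. NFE2, a haematopoietic transcription factor, had 2.83, 2.61 and 2.72 CPM in AML874 libraries at 24 h, against 5.63, 5.25 and 5.36 CPM in DMSO libraries. It had 2.57, 3.12 and 2.96 CPM in AML874 libraries at 8 h, against 5.88, 5.61 and 6.11 CPM in DMSO libraries. The AML874 libraries were far below the DMSO libraries at both times. Differences were 0.035 ± 0.11 for NFE2, -0.052 ± 0.08 for C5, -0.007 ± 0.07 for SRR, serine racemase, and 0.056 ± 0.11 for SPACA9, a sperm protein. The interval of the difference was too wide to call it sustained in 9 of 23 other settings for SPACA9, 6 each for NFE2 and RGL4 and 5 for PPP1R27. RGL4 and PPP1R27, regulators of small GTPases and of a phosphatase, had sustained effects of -1.33 ± 0.08 and -1.10 ± 0.07 at 24 h and -1.30 ± 0.08 and -1.15 ± 0.08 at 8 h. MYC, the transcription factor, was slightly lower at both times, with -0.23 ± 0.03 at 24 h and -0.23 ± 0.03 at 8 h.

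Ribosomal protein and mitochondrially encoded genes were slightly higher with AML874 at 24 h, 36 of 47 and 12 of 13. Cytosolic ribosomal proteins had 37 higher and 0 lower differences among 47, with median effects of 0.10 at 24 h and -0.028 at 8 h. With library totals alone the count was 21 higher and 0 lower. RPS24 had 909 ± 16.8 CPM with AML874 at 24 h, against 825 ± 15.7 CPM with DMSO (SD, n = 3 each). It had 827 ± 21.7 CPM with AML874 at 8 h, against 855 ± 22.4 CPM with DMSO, so these shifts are small beside the level. RPS24 was late in 17 of 23 other settings and reversed in the rest. Processed copies of ribosomal protein genes are frequent in the genome. All 13 mitochondrially encoded genes were tested and 10 had higher differences, with medians of 0.37 at 24 h and 0.082 at 8 h. MT-ND1, a complex I subunit, had effects of 0.42 ± 0.03 at 24 h and 0.086 ± 0.03 at 8 h, and MT-CO1, of complex IV, 0.44 ± 0.03 at 24 h and 0.15 ± 0.03 at 8 h. MT-ND1 was late in 16 of 23 other settings and growing in the rest. The share of counts from mitochondrial genes was 8.14, 7.74 and 8.16% in AML874 libraries at 24 h, against 6.18, 6.15 and 6.11% in DMSO libraries. It was 6.54, 6.61 and 6.74% in AML874 libraries at 8 h, against 6.22, 5.97 and 6.07% in DMSO libraries, so the AML874 libraries at 24 h stood apart from the other 9. The part of this share in the other results was not tested. The 40 nuclear respiratory chain genes had 18 higher and 1 lower differences, and 8 and 2 with library totals alone. Of these 40 genes 17 were higher and 2 lower at 24 h, against 5 higher and 12 lower at 8 h, and over time 15 fell and 6 rose with AML874, against 28 and 1 in DMSO culture.

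Replication-dependent histone transcripts, which mostly lack a poly(A) tail and are poorly caught by poly(A) selection, had 9 higher and 0 lower differences among 17 tested of 22. H2AC6 had 9.59, 10.2 and 8.8 CPM in AML874 libraries at 24 h, against 8.92, 8.25 and 7.9 CPM in DMSO libraries. It had 4.8, 4.36 and 4.99 CPM in AML874 libraries at 8 h, against 7.29, 7.94 and 6.83 CPM in DMSO libraries. AML874 libraries overlapped with DMSO libraries at 24 h and were lower at 8 h, although its effect at 24 h was called (0.19 ± 0.06, against -0.65 ± 0.07 at 8 h). H2AC11 had 0.30 ± 0.11 at 24 h and -0.73 ± 0.12 at 8 h, and H3C10 0.81 ± 0.09 at 24 h and 0.076 ± 0.10 at 8 h.

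EGR1, an immediate early transcription factor, was strongly reduced at both times. It had 18.5, 15.3 and 13.2 CPM in AML874 libraries at 24 h, against 129, 101 and 115 CPM in DMSO libraries. It had 4.39, 4.93 and 4.81 CPM in AML874 libraries at 8 h, against 54.6, 53.7 and 89.3 CPM in DMSO libraries. The lowest DMSO library was far above the highest AML874 library at each time, and the 3 DMSO libraries at 8 h spread widely. The effect was -2.87 ± 0.22 at 24 h and -3.81 ± 0.25 at 8 h, and the difference of 0.94 ± 0.33 was not called (edgeR adjusted p = 0.0569, 95% interval 0.23 to 1.65). It was called with DESeq2 (adjusted p = 0.0138), with limma-voom (adjusted p = 0.0264), and by edgeR with a filter of 1 CPM, with RSEM counts and without DMSO 8 h replicate 1 or 2 (adjusted p = 0.0358, 0.0493, 0.0402 and 0.0355). Immediate early genes as a list had 7 higher and 6 lower differences among 32, against 11.1% and 12.5% of all genes. Transient lower effects were found for 6, against 2.6% of all genes. The 7 higher differences became 4 without AML874 8 h replicate 1. FOSL1, an AP-1 subunit, and NR4A1, a nuclear receptor, were lower late, with -0.77 ± 0.06 and -0.65 ± 0.06 at 24 h and 0.045 ± 0.06 and -0.062 ± 0.06 at 8 h.

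The title also names venetoclax, which blocks the survival protein BCL2. BCL2 itself was higher at both times, with effects of 0.23 ± 0.03 at 24 h and 0.12 ± 0.03 at 8 h, with a difference at the border of the threshold (0.11 ± 0.04, edgeR adjusted p = 0.0496). That difference was called in 9 of 23 other settings and BCL2 was sustained in the rest. It was not called with library totals alone (edgeR adjusted p = 0.273), with median-of-ratios factors (0.0691), the replicate block (0.0556), unstranded counts (0.0709) or RSEM counts (0.0584), by DESeq2 (0.0803) or limma-voom (0.0619), nor without any 1 of DMSO 24 h replicates 2 and 3, AML874 24 h replicates 1 and 2, DMSO 8 h replicate 3 and AML874 8 h replicates 2 and 3, with adjusted p of 0.0574 to 0.128. MCL1 and BCL2L1, the other main survival members, were lower, with effects of -0.28 ± 0.02 and -0.32 ± 0.04 at 24 h and -0.17 ± 0.02 and -0.12 ± 0.04 at 8 h. Their differences were -0.11 ± 0.03 and -0.20 ± 0.06 (edgeR adjusted p = 0.00994 and 0.0143), and without DMSO 8 h replicate 3 neither was called, with edgeR adjusted p of 0.0588 and 0.062. BCL2L1 was also not called without AML874 24 h replicate 1, AML874 8 h replicate 3 or DMSO 24 h replicate 2, with adjusted p of 0.0558 to 0.0633. PMAIP1, the BH3-only protein NOXA, had 0.20 ± 0.06 at 24 h and 0.35 ± 0.07 at 8 h, with no call of the difference (-0.15 ± 0.09). Over the family of 13 tested genes, 2 had higher and 2 lower differences, near the shares of 11.1% and 12.5% over all genes.

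Transcripts of the Mediator kinase module had small effects or none. CDK8, CDK19, CCNC and MED12 had no called effect at either time, and their differences were -0.06 ± 0.05, 0.068 ± 0.07, 0.082 ± 0.04 and 0.058 ± 0.05. MED13 was sustained slightly lower, with -0.10 ± 0.03 at 24 h and -0.077 ± 0.03 at 8 h, in 15 of 23 other settings, and had a call only at 24 h in the rest, the replicate block among them. Of 33 Mediator genes, 2 had higher and 2 lower differences, 0.15 ± 0.04 for MED21 and -0.28 ± 0.07 for MED27 being among them. Over all genes the shares were 11.1% higher and 12.5% lower. Transcription elongation genes had 3 higher and 6 lower differences among 26, and the 6 became 2 or 3 without any 1 of DMSO 24 h replicate 2, AML874 24 h replicate 3, DMSO 8 h replicates 1 and 3 and AML874 8 h replicates 1 and 3. The 6 also became 10 with library totals alone, and the 3 became 5 without AML874 8 h replicate 2.

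The other lists had mixed counts or few genes, to be read beside the shares over all genes, 11.1% higher and 12.5% lower. Lysosome and autophagy genes had 8 higher and 5 lower differences among 30, with NPC2, a lysosomal cholesterol carrier, at 0.40 ± 0.05 and HEXA, a lysosomal enzyme, at 0.30 ± 0.04. P53 targets had 3 higher and 7 lower among 29, with TP53I3, an oxidoreductase, at 0.45 ± 0.06 and FAS, a death receptor, at -0.67 ± 0.11. NF-kappaB targets had 1 higher and 6 lower among 25 tested of 29, with the adhesion molecule ICAM1 at -0.47 ± 0.09. NRF2 targets, which defend against oxidants, had 1 and 5 among 18 (3 lower without DMSO 24 h replicate 2), with ME1, malic enzyme, at -0.78 ± 0.10 and FTH1, ferritin heavy chain, at 0.33 ± 0.05. Nucleolar ribosome biogenesis genes had 1 and 6 among 26, and 3 lower without any 1 of DMSO 24 h replicates 2 and 3, AML874 24 h replicate 1, DMSO 8 h replicate 3 and AML874 8 h replicate 3, but 14 lower with library totals alone. Liver X receptor targets had 0 and 3 among 9 tested of 11 (5 lower with library totals alone and 5 with the replicate block within the 24 h libraries), with the sterol exporter ABCG1 at -0.64 ± 0.09. TGF-beta and SMAD targets had 2 and 4 among 14 tested of 16, with SMURF1, a ubiquitin ligase, at -0.30 ± 0.05, and their median difference of 0.029 turned to -0.020 with library totals alone.

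Glycolysis genes were mostly lower at both times, 15 of 22 at 24 h and 12 at 8 h. Of 20 HIF targets, which hypoxia induces, 6 were lower at each time. The shares lower over all genes were 23.7% at 24 h and 19.9% at 8 h. Glycolysis had 0 higher and 3 lower differences between times (9 lower with library totals alone, 7 with the replicate block within the 24 h libraries, 6 without AML874 24 h replicate 1 and 5 without DMSO 24 h replicate 2) and medians of -0.32 at 24 h and -0.22 at 8 h, while HIF targets outside glycolysis (20 tested of 23) had 0 higher and 3 lower, with medians of -0.29 at 24 h and -0.36 at 8 h. The median of the HIF target differences was 0.0995, opposite in sign to its 3 calls. In each of these lists the 3 lower calls were near the share of 12.5% over all genes. ALDOA, aldolase, had an effect of -0.83 ± 0.06 at 24 h and -0.42 ± 0.06 at 8 h. VEGFA, a HIF target that promotes vessel growth, was lower late, with -0.63 ± 0.08 at 24 h and -0.19 ± 0.08 at 8 h. It was late in 19 of 23 other settings and growing in the rest, DESeq2 and limma-voom among them. The mean log2 level of the HIF targets ranged over 5.01 to 5.31 in AML874 libraries at 24 h, against 5.34 to 5.58 in DMSO libraries. At 8 h it ranged over 4.66 to 4.73 with AML874, against 4.76 to 5.29 with DMSO, where replicate 3 stood apart from the other libraries of its group. The part of this spread in the other results was not tested beyond the values given without that library.

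**Figure D5:**
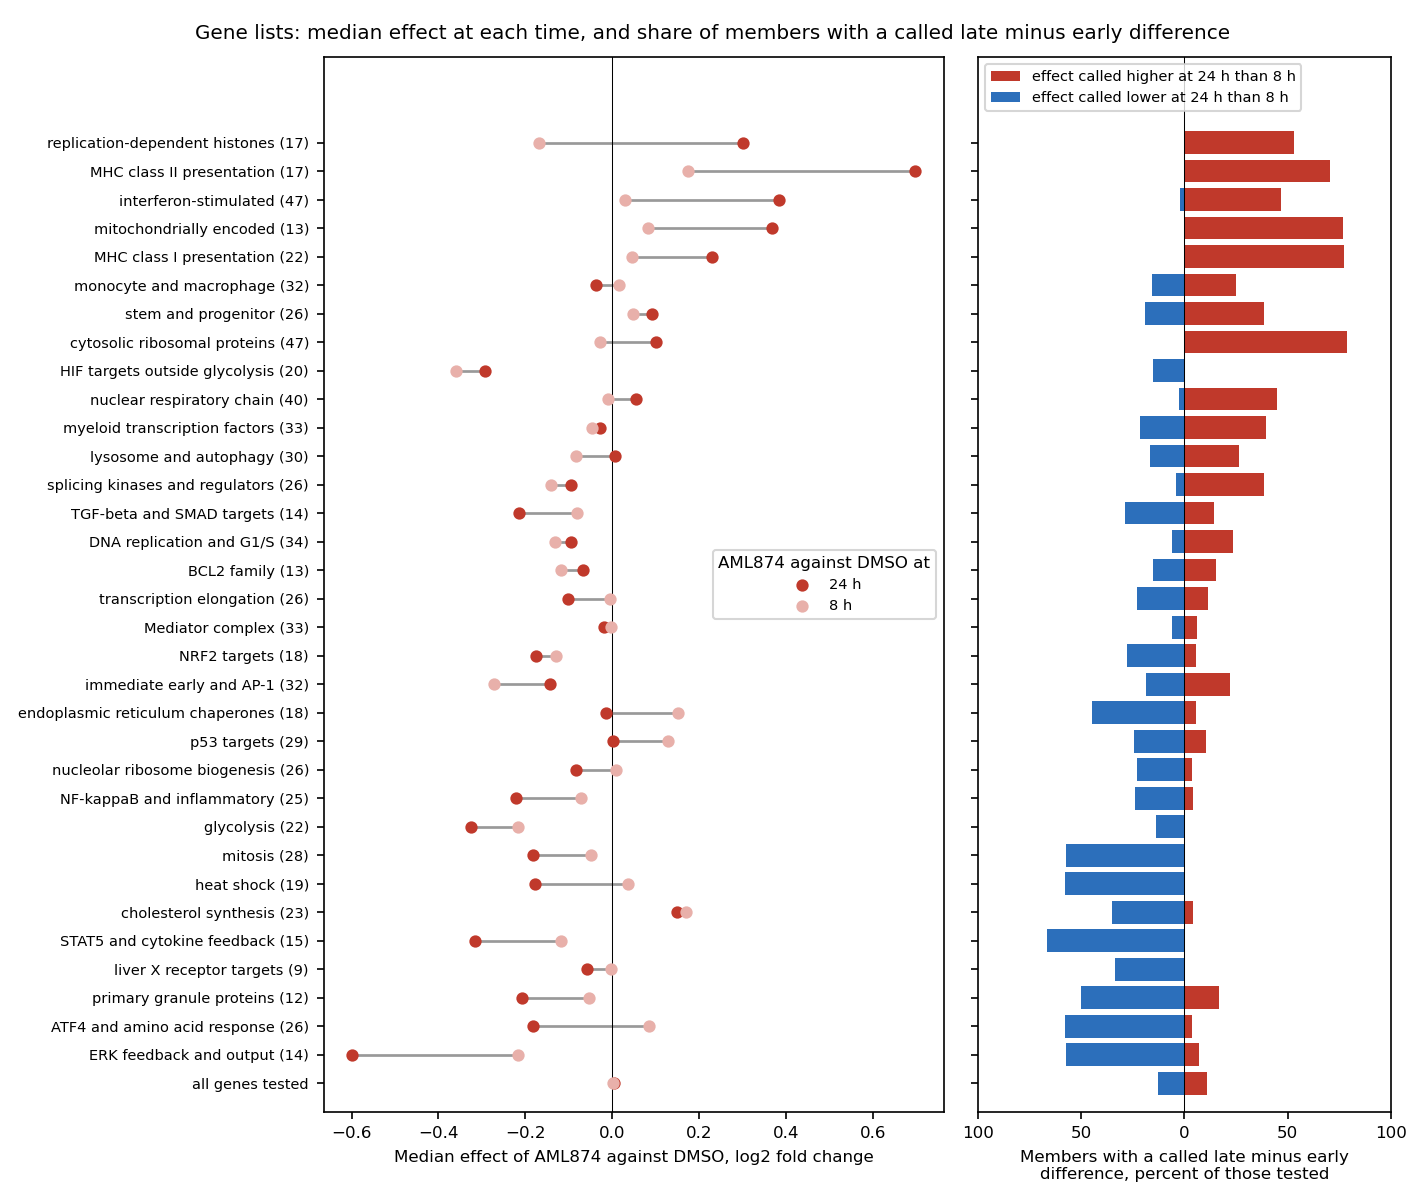
Median effect of AML874 at 24 h and at 8 h (horizontal axis, log2 fold change over DMSO) for each gene list (vertical axis), with the percent of tested members called higher or lower in the late minus early difference beside it and all genes tested at the bottom. MHC class II, interferon-stimulated and mitochondrially encoded genes have higher medians at 24 h, and ERK feedback and STAT5 genes lower ones.

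SEL120-34A was given for the same times, and both compounds share the DMSO libraries. For SEL120-34A the late minus early difference was called for 5706 genes (27.3%), 2979 higher and 2727 lower. The difference between the compounds, in which DMSO cancels, was called for 3704 genes (17.7%), with AML874 higher for 1469 (7.02%) and lower for 2235 (10.7%). Doses are not given, so their match is unknown. For interferon-stimulated genes the late minus early difference was higher with AML874 for 15 of 47 and lower for 2. GBP4 had a difference between times of 1.90 ± 0.13 with AML874 and 0.77 ± 0.12 with SEL120-34A (edgeR adjusted p = 1.08e-08 for the contrast of compounds), and IFI16 0.77 ± 0.06 and 0.16 ± 0.06 (adjusted p = 2.64e-09). Mitochondrially encoded genes differed for 7 of 13 and histone genes for 4 of 17, all higher with AML874.

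Several lists had lower late minus early differences with AML874 than with SEL120-34A. Heat shock genes were lower in the contrast of compounds for 14 of 19 and higher for 0, ER chaperones lower for 14 and higher for 1 of 18, and ATF4 targets lower for 12 and higher for 0 of 26. HSPA5 had -0.49 ± 0.05 with AML874 and 0.047 ± 0.05 with SEL120-34A (edgeR adjusted p = 2.94e-09), and SLC7A11 -0.94 ± 0.10 and -0.077 ± 0.10 (adjusted p = 1.07e-07). Primary granule genes were lower for 9 of 12 and higher for 0. MPO had -1.89 ± 0.09 with AML874 and -0.67 ± 0.09 with SEL120-34A (adjusted p = 1.24e-10), and MS4A3 had opposite signs, -0.71 ± 0.08 and 0.44 ± 0.08 (adjusted p = 1.25e-12). Nucleolar genes were lower for 17 of 26 and replication genes for 18 of 34, with 0 higher in both, although the replication genes had 8 higher and 2 lower differences with AML874, against 20 and 0 with SEL120-34A. RBM14 had 0.99 ± 0.05 with AML874 and 1.55 ± 0.05 with SEL120-34A (adjusted p = 3.35e-09), and ID2, an inhibitor of helix-loop-helix factors, had 0.43 ± 0.07 and -0.62 ± 0.07 (adjusted p = 4.17e-11).

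For CD34, ETV5, FLT3 and HEXIM1 no difference between the compounds was called. CD34 had 2.24 ± 0.17 with AML874 and 1.91 ± 0.17 with SEL120-34A, a difference of 0.32 ± 0.14 (edgeR adjusted p = 0.108). ETV5 had -1.05 ± 0.08 and -0.99 ± 0.08 (difference -0.059 ± 0.08, adjusted p = 0.707), FLT3 0.88 ± 0.08 and 0.96 ± 0.08 (difference -0.076 ± 0.08, adjusted p = 0.583), and HEXIM1 0.34 ± 0.05 and 0.35 ± 0.05 (difference -0.012 ± 0.05, adjusted p = 0.915). A missing call does not show that the compounds act alike. For CD34 the 95% interval of the difference between compounds ran over 0.041 to 0.60, and for HEXIM1 over -0.12 to 0.10.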

How the data were processed

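Poly(A)-selected RNA of 18 libraries, 3 in each of 6 groups, was sequenced after TRIzol and column extraction, per the labels' protocols. Reads were handled with STAR 2.7.1a, RSEM 1.3.2 and GRCh38, per the submitters' processing notes, and the annotation release is not given in the sources used here. Read counts per gene, as deposited by the authors, follow the layout of STAR's gene counts with 3 strand columns. The reverse column was used, whose total was 1.05 times the unstranded one, and summary lines that name no gene, 21.9 to 25.5% of each library, were left out. Expected counts that the authors deposited from RSEM were rounded and served as an alternative. The deposited TPM values were not used. Of 60609 identifiers, 60295 received a symbol and 58489 matched GENCODE 29, which supplied GRCh38 coordinates.

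Genes with too few counts were removed with edgeR's filterByExpr, which took 0.016% of counts. Counts were scaled by TMM and fitted with edgeR 4.0.16 (limma 3.58.1, R 4.3.3), robust quasi-likelihood, in 1 model of 6 groups with 12 residual degrees of freedom. Fits on simulated counts were checked first. Replicates of a group differed by more than counting noise in every pair, so none was counted as a duplicate. Deviations of same-numbered replicates correlated at 0.419, 0.201 and 0.273 between AML874 and DMSO at 24 h, so a block within these 6 libraries was added as an alternative after seeing the data. Unlike-numbered replicates of these groups correlated at -0.405 to 0.231, the highest being above the lowest same-numbered value. Of the other 15 same-numbered correlations 1 passed 0.1, and numbers were not taken as pairs across the 4 groups.

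Named genes are the 3 per class and direction with the largest difference (for sustained genes, the largest of the smaller effect) among protein-coding genes with 5 CPM in some group, up to 4 tested members per list by p at any level, and genes fixed by name. Other names are marked as chosen after their values were seen. The 33 lists, the classes and the members were chosen with earlier results of these data known. List counts without single libraries and under other settings were alternatives added after seeing the data. Results were also computed with median-of-ratios factors, library totals, DESeq2 1.42.0, limma-voom, 2 filters, the replicate block, a model of 4 groups, unstranded counts, RSEM counts, an adjusted p of 0.01, other margins for sustained effects, and each library left out in turn. Python 3.11.15, pandas 2.3.3 and matplotlib 3.10.9 made tables and figures. Limits at 0 counts cover counting error only, and intervals of effects include the variation between libraries.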

Additional observations from a re-analysis of the deposited data

Results flagged for a closer look

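Effects differed between 24 h and 8 h for 4944 genes by the interaction test, and the late minus early differences of AML874 and SEL120-34A differed for 3704 genes (edgeR, adjusted p under 0.05). ID2 had a late minus early difference of 0.43 with AML874 and -0.62 with SEL120-34A, and the contrast of compounds was 1.0576 on the log2 scale. MS4A3 had -0.71 with AML874 and 0.44 with SEL120-34A, a contrast of -1.1455. Within AML874, ZCWPW1 turned upward with a difference of 1.4072, and ZNF536 turned downward with -1.0304, both with called effects of opposite sign at 24 h and 8 h. Groups of 3 libraries are too small to set 1 library apart by Dixon's test, so single libraries were not examined in that way.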

How the results depend on the processing

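Counts of called genes and of each class stayed within 1.5 times their value under every alternative run except the stricter threshold. At an adjusted p under 0.01, 1510 genes were higher and 1723 lower, with 474 growing, 234 fading and 261 reversed genes. Without 1 library, the counts ranged over 2018 to 2380 higher and 2110 to 2511 lower genes, with 1600 to 1862 late, 669 to 820 growing, 362 to 479 fading, 938 to 1123 transient, 439 to 517 reversed and 2416 to 2607 sustained genes. Sustained genes numbered 1968 with a margin of 0.2 and 3041 with a margin of 0.5. With the replicate block 4788 genes were called, 4741 of them among the 4944, and BCL2 was the named gene that lost its call. With a block within the 24 h libraries of AML874 and DMSO, added after seeing the data, 5104 were called (4892 shared) and 9896 had an effect at 24 h (9718 shared with the 9799). No named gene changed the call of its difference there. The class did change, from late to reversed for FCER2 and CCL2, and from unresolved to sustained for PMAIP1.

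The sign of a difference near 0 changed for some genes, none of which had a called difference. SRR had 0.0172 with a filter of 1 CPM and 0.0150 with RSEM counts, and RGL4 had 0.0280 with unstranded and 0.0173 with RSEM counts. NFE2 had -0.0116 with library totals alone. MYC had -0.0084 with median-of-ratios factors and with DESeq2, -0.0464 with library totals, -0.0014 in the model of 4 groups, -0.0047 with unstranded and -0.0070 with RSEM counts. Without 1 library, the ranges were -0.0968 to 0.0131 for C5, -0.0161 to 0.1136 for SPACA9, -0.0315 to 0.0409 for SRR, -0.1021 to 0.0410 for RGL4, -0.0525 to 0.1094 for PPP1R27, -0.0339 to 0.1098 for NFE2, -0.0088 to 0.0286 for MYC and -0.0455 to 0.0029 for MED13. ALDOA lost its call with RSEM counts (-0.1205, adjusted p = 0.261 by edgeR) and MED21 with library totals (0.1047, adjusted p = 0.0897). CCNC gained one with a filter of 1 CPM (0.1059, adjusted p = 0.0292 by edgeR). The cause of these changes was not tested. With a filter of 1 CPM, 14 lysosome genes were higher and 3 stem and progenitor genes lower, and glycolysis had 5 lower with median-of-ratios factors, DESeq2, limma-voom or a filter of 1 count. Depth limits genes near the limit of 3 counts. Small differences depend on the scaling, among them some larger in size than the shift of -0.0546 that library totals gave, such as those of BCL2, HLA-B and MED21.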

Other observations

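Antisense and lincRNA genes had more higher than lower differences. Of 1697 antisense genes tested, 174 had higher and 59 lower late minus early differences, and of 1389 lincRNA genes 138 had higher and 56 lower ones. Of 13339 protein-coding genes, 1806 had higher and 2384 lower differences, and of 2004 processed pseudogenes 22 and 23. A difference in either direction was called for 13.7% of antisense, 14% of lincRNA and 31.4% of protein-coding genes, against 23.6% of all genes. With the filter used, higher calls among antisense and lincRNA genes were no more frequent than the 11.1% of all genes. Their lower calls were rarer than the 12.5% of all genes. With library totals alone, an alternative added after seeing the data, the counts were 151 and 68 for antisense genes, 115 and 72 for lincRNA genes, and 1283 and 3598 for protein-coding genes. With a filter of 1 CPM, protein-coding genes had 2290 higher and 2077 lower differences among 11413 tested, so their split turned. Antisense genes had 155 and 35 among 549, and lincRNA genes 124 and 33 among 432. The difference between gene types itself was not tested.

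The following genes were chosen after their values were seen, as non-coding genes with at least 5 CPM and large differences. CDK6-AS1, antisense to the kinase gene CDK6, averaged 13.9 CPM with AML874 at 24 h, against 4.81 CPM with DMSO, and 5.62 CPM with AML874 at 8 h, against 4.6 CPM with DMSO (difference 1.24, edgeR adjusted p = 8.04e-13). MIR223HG, the host transcript of the myeloid microRNA miR-223, averaged 20.1 CPM with AML874 at 24 h, against 50.3 CPM with DMSO, and 11.2 CPM with AML874 at 8 h, against 49.6 CPM with DMSO. Its reduction was present at both times and smaller at 24 h (difference 0.83, edgeR adjusted p = 4.19e-13). MIR646HG reversed downward, with an effect of -0.33 at 24 h and 0.83 at 8 h. LINC02908, PRANCR and SNHG19, a host gene of small nucleolar RNAs, reversed upward, with effects of 0.36, 0.45 and 0.22 at 24 h and of -0.68, -0.47 and -0.59 at 8 h.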
